A study of Homo sapiens with 4 samples.

Results

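The replication-dependent histone genes encode the linker histone H1 and the core histones H2A, H2B, H3 and H4 that package newly made DNA. They were taken as the rows of the deposited expression table whose symbol is H1-1 to H1-6, or H2AC, H2BC, H3C or H4C followed by a number. This gave 63 of 19215 genes: 6 of H1, 15 of H2A, 17 of H2B, 13 of H3 and 12 of H4. The rule reads the symbols alone. The cells were C28/I2, a line of immortalised human chondrocytes (cartilage cells), in medium with 10% serum. One group received 25 ng/mL of FABP4, a lipid carrier secreted by fat tissue, and the other 0.5% DMSO, both for 48 h. Each condition has 2 RNA-seq libraries, and the question is which transcripts differ between them. The labels do not say whether the FABP4 cells also received DMSO, so the protein and the absence of vehicle cannot be told apart. They also do not say whether replicates are separate cultures, so p-values measure the spread between these samples, which may be technical. Chondrocyte identity was weak by most markers: 11 of 16 cartilage markers, COL2A1 included, did not reach 1 FPKM in any library, and COL9A1 and CNMD were listed at 0. The 4 that reached it in at least 2 libraries were SOX9, COL11A2, ACAN (2.53 to 3.69 FPKM) and SNORC (2.03 to 2.67 FPKM). SOX9 had 8.81 and 9.98 FPKM with FABP4 against 11.34 and 11.29 with DMSO, and COL11A2 3.96 and 4.0 against 3.07 and 2.78. In both the groups did not overlap, which held for 36.9% of all tested genes. Neither passed the test used below (limma adjusted p = 0.531 and 0.326). The summed marker level was 19.64 and 22.72 FPKM with FABP4 against 22.64 and 21.96 with DMSO.

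As background, these genes sit in clusters, have few or no introns and are switched on as cells enter S phase, when NPAT activates their transcription. Their mRNAs are the main animal mRNAs that normally end without a poly(A) tail. A short stem-loop near the 3' end, bound by the protein SLBP, takes over the role of the tail, and the mRNA is broken down when DNA synthesis stops. Some members can also give longer, polyadenylated transcripts. Variant histones such as H3-3A and H2AZ1 are made throughout the cell cycle from ordinary polyadenylated mRNAs. How RNA was selected for these libraries is not given in the sources used here. A selection for poly(A) tails keeps little of an mRNA that ends at the stem-loop, so the levels below are levels of the RNA that entered the libraries.

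Of the 63 members 52 lie on chromosome 6, over 2.17 Mb, and 11 on chromosome 1, over 0.11 Mb (GENCODE 29, GRCh38). The stem-loop was found in a GENCODE 29 transcript of 28 members (44.4%), against 0.925% of all 19684 protein-coding genes. Of the other members, 32 have a longest transcript model whose length is a multiple of 3 and which may hold the coding part alone, so how far transcripts run past the stem-loop cannot be compared across members. The 28 members carried 6 different stem-loops of 16 bases. Shown are those of members with the highest levels of their type for which one was found, with 5 flanking bases on each side and the stem-loop in capitals.
H2AC18, chr1:149842218-149842243, minus strand: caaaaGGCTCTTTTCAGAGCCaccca
H2AC6, chr6:26124664-26124689, plus strand: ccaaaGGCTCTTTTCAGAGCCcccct
H2BC5, chr6:26158582-26158607, plus strand: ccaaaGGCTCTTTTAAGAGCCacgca
H2BC21, chr1:149886183-149886208, minus strand: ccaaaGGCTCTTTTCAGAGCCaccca
H3C10, chr6:27810511-27810536, plus strand: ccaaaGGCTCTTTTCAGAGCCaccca
H4C14, chr1:149833027-149833052, plus strand: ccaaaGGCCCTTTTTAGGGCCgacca
H2AC18, H2AC6, H2BC21 and H3C10 share 1 stem-loop, which 15 members carry. Of the GENCODE 29 transcripts of a gene that hold it, the transcript reaching farthest past it was taken. That transcript has 1128 bases after the stem-loop in H2AC6, 1729 in H2BC21, 769 in H3C10 and 35 in H2AC18.

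Many H2A and H2B genes are neighbours that are read in opposite directions from a shared promoter region. Among the 58 members with a promoter in the RefSeq table, 10 such pairs were found with start sites 194 to 248 bases apart, 9 of them an H2A with an H2B gene. The tenth is H2BC7 with H3C4, whose window in that table is identical to that of H2AC7, the partner of H2BC7. In 3 pairs, among them those of H2BC7 with H2AC7 and with H3C4, both genes were listed at 0 in every library. In 2 pairs both had a mean of at least 5 FPKM: H2AC20 with H2BC21 and H2AC6 with H2BC4. The window of the H2A gene of each of these 2 pairs is shown, with that of H2BC12, the most abundant member. Each runs from 250 bases before to 50 after the start (RefSeq, GRCh38.p14). Capitals mark the TATA box letters TATAAA, the CCAAT box and the octamer motif ATTTGCAT on either strand.
H2AC20, chr1:149886668-149886967, plus strand: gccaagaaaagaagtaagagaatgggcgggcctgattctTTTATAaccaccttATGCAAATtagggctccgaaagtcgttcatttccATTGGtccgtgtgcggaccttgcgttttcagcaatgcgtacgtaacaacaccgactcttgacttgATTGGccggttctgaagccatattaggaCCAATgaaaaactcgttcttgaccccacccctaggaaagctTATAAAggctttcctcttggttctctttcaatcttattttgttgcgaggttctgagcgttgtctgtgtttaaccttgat
H2AC6, chr6:26123922-26124221, plus strand: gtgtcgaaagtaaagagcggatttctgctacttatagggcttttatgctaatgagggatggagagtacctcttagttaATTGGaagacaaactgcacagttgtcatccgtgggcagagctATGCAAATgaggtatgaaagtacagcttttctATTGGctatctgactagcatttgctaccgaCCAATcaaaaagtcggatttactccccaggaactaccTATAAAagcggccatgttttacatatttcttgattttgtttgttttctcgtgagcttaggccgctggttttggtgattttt
H2BC12, chr6:27146809-27147108, minus strand: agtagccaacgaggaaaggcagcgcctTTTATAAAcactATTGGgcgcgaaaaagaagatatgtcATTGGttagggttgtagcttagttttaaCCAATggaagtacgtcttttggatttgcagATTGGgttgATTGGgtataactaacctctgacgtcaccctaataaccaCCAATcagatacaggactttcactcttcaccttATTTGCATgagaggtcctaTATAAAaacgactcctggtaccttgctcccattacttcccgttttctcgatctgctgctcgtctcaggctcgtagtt
In H2BC12, 2 TATAAA matches on opposite strands overlap in the first capital run. The octamer was present in 14 of 17 H2B and 10 of 14 H2A windows, in 1 of 11 H3 windows and in none of the 10 H4 or 6 H1 windows, against 1.80% of 27305 promoters in the table. CCAAT was present in every H1, H2A, H2B and H3 window and in 2 of 10 H4 windows, against 35.7% of all promoters. TATAAA was present in 39 of the 58 windows (67.24%), against 11.95%. The divergent H2A and H2B windows overlap and count the same letters for both genes. The H3 window with the octamer is that of H3C4, which is the H2AC7 window counted again.

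Few members were detected at more than trace level. All values are FPKM, which divide the fragments of a gene by its transcript length and the size of the library. Levels of different genes are thus set side by side per length, as RNA that entered the libraries. A selection for poly(A) tails, which is not known, would not keep members and variant histones alike. In all 4 libraries 26 members were listed at 0, and 21 were above 0 in all 4. The 3 most abundant, H2BC12, H1-2 and H2AC18, held 73.44% to 78.26% of the summed FPKM of the 63. The first 8, with H2AC6, H2BC5, H2BC21, H2BC4 and H2AC20, held 90.12% to 92.58% and were the members with a mean of at least 5 FPKM. Among the other 55 the highest value in any library was 6.06 FPKM. All members together made up 0.0564% to 0.0643% of the summed FPKM of all genes. Variant histones were more abundant in these libraries. The 16 on a list of such genes that are in the table summed to 4.11 to 4.90 times the level of the 63 members. Among them, H2AZ1 stood at 426.45 to 573.9 FPKM.

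**Figure D1:**
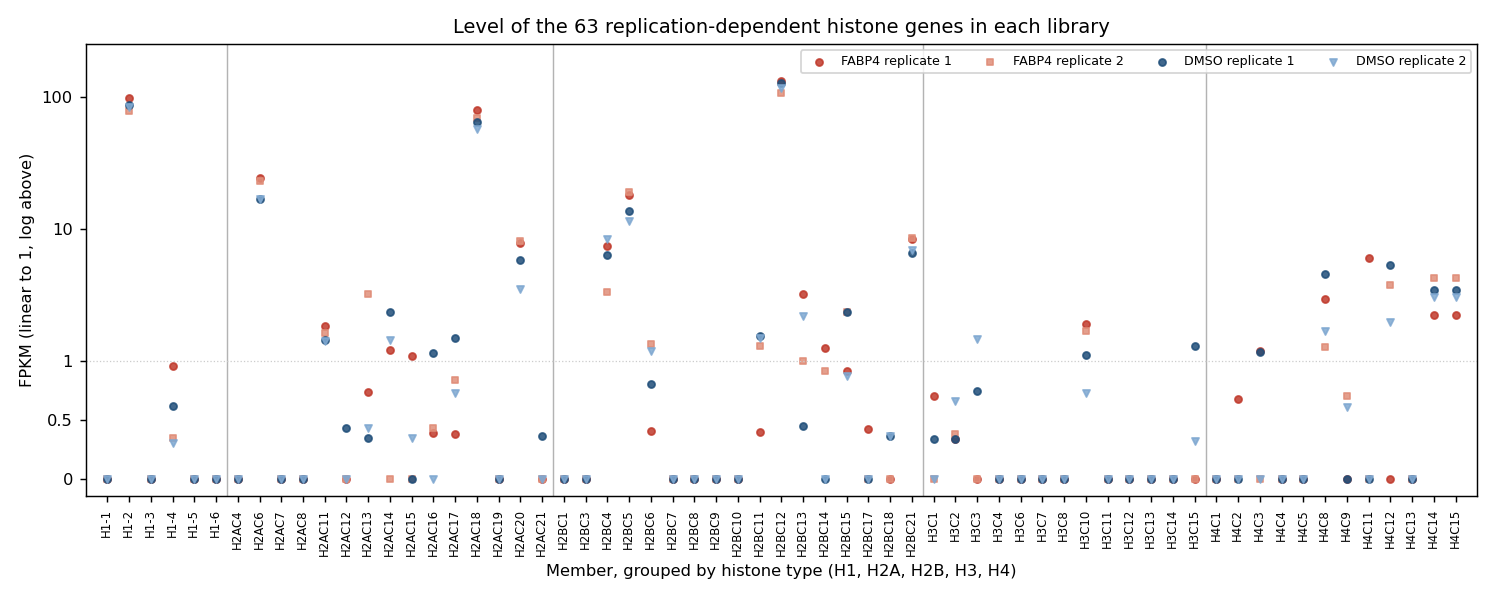
FPKM of each of the 63 members (x axis, grouped by histone type) in each of the 4 libraries, on a y axis that is linear to 1 FPKM and logarithmic above; the dotted line marks 1 FPKM. H2BC12, H1-2 and H2AC18 stand at 57.04 to 132.12 FPKM in every library, while 26 members lie at 0 in all 4.

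The types differed in level. H2B members summed to 159 ± 19.7 FPKM with FABP4 and 154 ± 5.70 with DMSO (mean ± SD, n = 2 libraries each, as for all such values), H2A to 112 ± 7.59 and 88.0 ± 8.75, and H1 to 88.2 ± 14.7 and 85 ± 2.02. H4 reached 14.8 ± 0.820 and 14.2 ± 5.37 FPKM and H3 2.52 ± 0.629 and 3.52 ± 0.474. In each of the first 3 types 1 gene dominated: H1-2 made up 99.36% of H1, H2BC12 77.08% of H2B and H2AC18 67.48% of H2A. The sum over all 63 was 376 ± 43.4 FPKM with FABP4 against 345 ± 22.3 with DMSO, a ratio of 1.09, and the libraries overlapped (406.87 and 345.47 against 360.45 and 328.91). H2A was the type whose sum lay higher in both FABP4 libraries, at 117.46 and 106.73 against 94.15 and 81.78, a ratio of 1.27. The H3 sum, the smallest, lay lower in both FABP4 libraries, at 2.96 and 2.07 against 3.85 and 3.18 FPKM. That direction came with H3C3 and H3C15, which were not tested and stood at 0 in both FABP4 libraries. With DMSO, H3C3 had 0.75 and 1.47 FPKM and H3C15 1.3 and 0.32. H3C10, the H3 gene that could be tested, went the other way, at 1.92 and 1.69 against 1.12 and 0.73 FPKM. The sums of the types and of all 63 were not tested. In bulk samples, a different number of cells in S phase and a different amount of RNA per cell cannot be told apart.

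The test took log2(FPKM + 1), kept the 12490 genes that reached 1 FPKM in 2 or more libraries and used limma with Benjamini-Hochberg adjustment over all of them. Fold changes on this scale understate the change of low genes. Of the 63 members 20 could be tested, and none passed an adjusted p of 0.05, where 0.592% of all tested genes did. At an unadjusted p under 0.05 there were 10 of the 20, against 9.68% of all tested genes. Of these 6 were higher in cells given FABP4, against 5.68% of all tested genes, and 4 were lower, against 4.0%. For 9 of the 20 the libraries of the groups did not overlap, against 36.9% of all tested genes. The median log2 fold change was 0.0096 over the 20 members and 0.014 over all tested genes. The authors' deposited table, from DESeq2, gives a p-value for 40 members. None of these has a q under 0.05, the lowest being 0.839, where 0.655% of all genes have such a q.

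**Figure D2:**
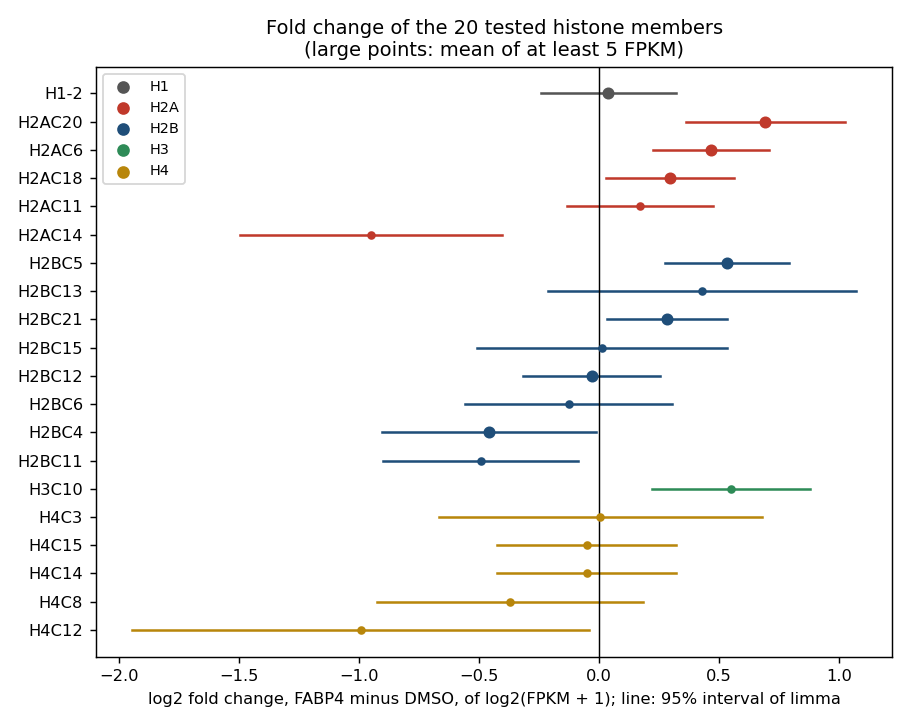
Log2 fold change of log2(FPKM + 1), FABP4 minus DMSO (x axis), of the 20 tested members (y axis, coloured by histone type), with the 95% interval of limma; large points have a mean of at least 5 FPKM. H2AC20, H2BC5 and H2AC6 lie at 0.69, 0.53 and 0.47, and H4C12 and H2AC14 lie near -1 with wide intervals.

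Among the H2A genes, H2AC20 lay nearest to the threshold. H2AC20 (chromosome 1, 149886975 to 149887364, plus strand, GRCh38) had 7.79 and 8.13 FPKM in FABP4 replicates 1 and 2, and 5.78 and 3.53 in DMSO replicates 1 and 2. Both FABP4 libraries lay above both DMSO libraries, and the DMSO libraries lay farther apart than the FABP4 libraries. The log2 fold change was 0.69 (SE 0.16, 95% interval 0.36 to 1.02), with a limma adjusted p of 0.0586. Without DMSO replicate 2 the log2 fold change was 0.40 (limma adjusted p = 0.280). Over 15 alternatives the limma adjusted p of H2AC20 ran from 2.27e-04 to 0.595, and it passed in 7. The lowest came with a pairing of the libraries chosen after the data were seen, which is among the 7. In 3 of these 7 a library was left out, so that 1 group had a single library, which is assumed to vary like the other group. In the authors' deposited table its log2 fold change is 0.87, with p = 0.123 before adjustment. Of the windows of 50 bases along H2AC20, 28.3% also occur in H2AC18, H2AC19 or H2AC21. Over all libraries H2AC18 had a mean of 67.5 FPKM, against 6.31 for H2AC20. How the value of H2AC20 depends on the way fragments are divided among these genes was not tested.

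H2AC6 (chromosome 6, 26124145 to 26139116, plus strand) had 24.37 and 23.01 FPKM with FABP4 and 16.89 and 16.83 with DMSO. The groups lay well apart and the DMSO libraries were almost equal. The log2 fold change was 0.47 (SE 0.11, 95% interval 0.22 to 0.71, limma adjusted p = 0.0821), and it passed in 3 of 15 alternatives (limma adjusted p = 0.00282 to 0.525). The lowest again came with the pairing chosen after the data were seen, which is among the 3. H2AC18 (chromosome 1, 149842188 to 149842736, minus strand) had 79.62 and 69.45 FPKM with FABP4 against 63.89 and 57.04 with DMSO. Here too the groups did not overlap, by a narrower margin. Its log2 fold change was 0.30 (SE 0.13, 95% interval 0.030 to 0.56, limma adjusted p = 0.427). All windows of 50 bases along H2AC18 also occur in H2AC19 or other H2A genes, and H2AC19 was listed at 0 in every library, so the value may stand for both genes.

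H2AC11 had 1.86 and 1.63 FPKM with FABP4 against 1.45 and 1.42 with DMSO, again without overlap (limma adjusted p = 0.833 for a log2 fold change of 0.17). H2AC14 was the tested H2A gene with a lower level, at 1.21 and 0 FPKM against 2.36 and 1.45 (limma adjusted p = 0.126 for a log2 fold change of -0.95). The other 10 H2A members were not tested: H2AC4, H2AC7, H2AC8 and H2AC19 were listed at 0 throughout. Of the 6 between 0 and the filter, H2AC13, H2AC15, H2AC16 and H2AC17 exceeded 0.5 FPKM in a library, with a highest value of 3.24 FPKM for H2AC13 in FABP4 replicate 2. H2AC12 and H2AC21 had 0.43 and 0.36 FPKM in DMSO replicate 1 and 0 elsewhere.

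**Figure D3:**
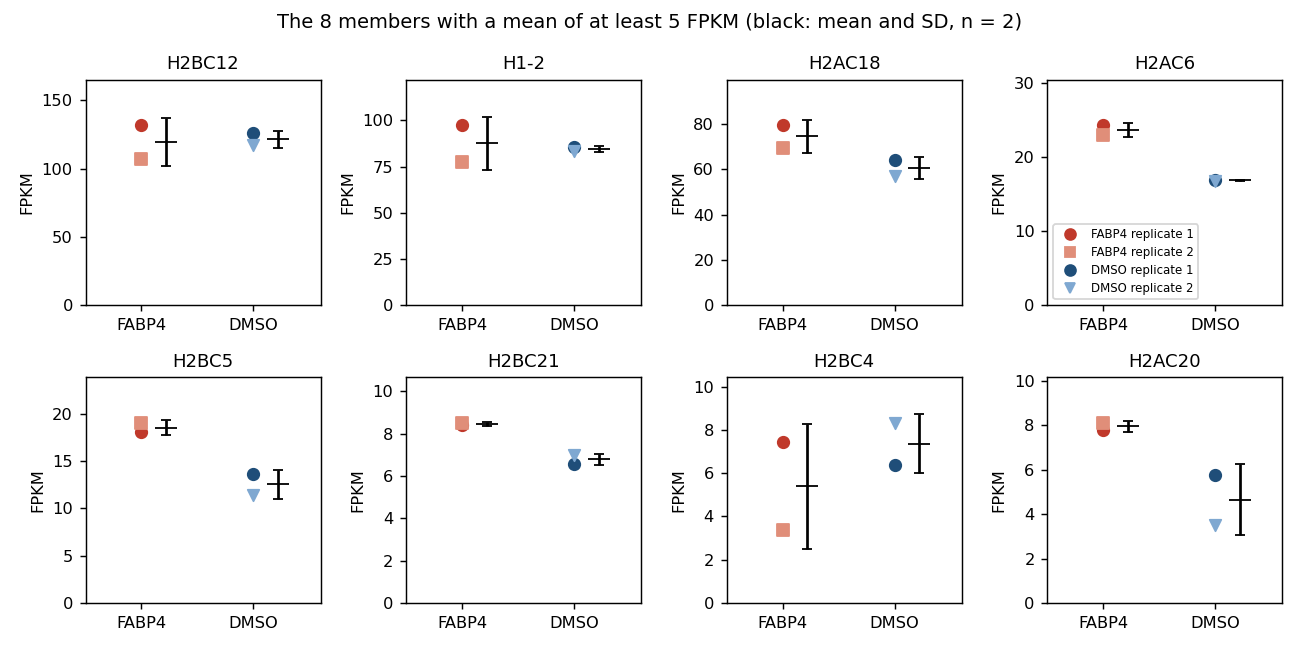
FPKM (y axis, from 0) of the 8 members with a mean of at least 5 FPKM in the FABP4 and DMSO libraries, 1 point per library, with the mean and SD (n = 2) in black. In H2AC18, H2AC6, H2BC5, H2BC21 and H2AC20 both FABP4 points lie above both DMSO points, while in H2BC12, H1-2 and H2BC4 the groups overlap.

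Among the H2B genes, the most abundant member showed no separation and a less abundant one came close to the threshold. H2BC12 (chromosome 6, 27146418 to 27146798, minus strand) had 132.12 and 106.87 FPKM with FABP4 and 125.86 and 117.08 with DMSO. The FABP4 libraries lay on either side of the DMSO libraries. The log2 fold change was -0.030 (95% interval -0.32 to 0.26, limma adjusted p = 0.987), and 73.3% of its windows of 50 bases occur in other genes, H2B genes among them. Its mean placed it at rank 733 of 19215 genes.

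H2BC5 (chromosome 6, 26158146 to 26171349, plus strand) had 18 and 19.05 FPKM with FABP4 and 13.63 and 11.42 with DMSO. The groups were separated by more than the difference between either pair of replicates. The log2 fold change was 0.53 (SE 0.12, 95% interval 0.28 to 0.79), with a limma adjusted p of 0.0599. Over 15 alternatives its limma adjusted p ran from 8.23e-04 to 0.586, and it passed in 5. The lowest came with the pairing of the libraries chosen after the data were seen, which is among the 5. In the authors' deposited table it is the member with the lowest p, at 0.0478 (q = 0.839), with a log2 fold change of 0.46. AL353759.1 on the opposite strand and LARP1P1 on the same strand overlap H2BC5, and whether counting used strand is not given in the sources used here.

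H2BC21 (chromosome 1, 149884459 to 149886652, minus strand), the divergent neighbour of H2AC20, had 8.41 and 8.53 FPKM against 6.59 and 6.98. Replicates lay close together and the groups did not overlap (log2 fold change 0.28, SE 0.12, 95% interval 0.033 to 0.53, limma adjusted p = 0.413). H2BC4 (chromosome 6, 26114873 to 26123926, minus strand), the divergent neighbour of H2AC6, had 7.42 and 3.35 FPKM against 6.39 and 8.34. FABP4 replicate 2 was low and FABP4 replicate 1 lay between the DMSO libraries (log2 fold change -0.46, 95% interval -0.90 to -0.012, limma adjusted p = 0.499). Without FABP4 replicate 1 the log2 fold change was -0.93 and without FABP4 replicate 2 it was 0.019 (limma adjusted p = 2.40e-04 and 1.00). In these fits the DMSO pair alone supplies the gene's own spread, which limma combines with a prior variance taken from all tested genes. In the pair H2AC20 and H2BC21 both genes thus had higher values in both FABP4 libraries, while in the pair H2AC6 and H2BC4 the first did and the second did not.

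Of the low H2B genes, H2BC11 had 0.40 and 1.3 FPKM against 1.54 and 1.51 (limma adjusted p = 0.352 for a log2 fold change of -0.49). H2BC13 had 3.20 and 1.00 against 0.45 and 2.19, H2BC15 0.92 and 2.34 against 2.37 and 0.87, and H2BC6 0.41 and 1.36 against 0.81 and 1.19. In these 3 the groups overlapped and, in at least 1 group, the libraries lay farther apart than the group means (limma adjusted p = 0.764, 0.996 and 0.946). H2BC14, at 1.26 and 0.92 with FABP4 and 0 in both DMSO libraries, was not tested, nor were H2BC17 and H2BC18, which stayed under 0.5 FPKM. The other 6 H2B members, among them the testis gene H2BC1, were listed at 0 in all libraries.

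H1-2 (chromosome 6, 26055787 to 26056428, minus strand), a linker histone gene, had 97.58 and 77.41 FPKM with FABP4 and 85.81 and 83.28 with DMSO. As in H2BC12, FABP4 replicate 1 was the highest library and FABP4 replicate 2 the lowest. The log2 fold change was 0.040 (95% interval -0.24 to 0.32, limma adjusted p = 0.983), and none of its windows occurs in another gene. H1-4 had 0.96, 0.35, 0.62 and 0.30 FPKM and was below the filter. The other 4 H1 genes, among them the testis gene H1-6, were listed at 0.

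Of the H3 genes, all of which encode nearly the same protein, H3C10 alone could be tested. H3C10 (chromosome 6, 27810064 to 27811300, plus strand) had 1.92 and 1.69 FPKM with FABP4 and 1.12 and 0.73 with DMSO. The groups did not overlap (log2 fold change 0.55, SE 0.16, 95% interval 0.22 to 0.88, limma adjusted p = 0.140), and it passed in 1 of 14 alternatives, a pairing of the libraries chosen after the data were seen. The authors' deposited table gives H3C10 a log2 fold change of 0.25 and a p of 0.817. H3C3, at 0 and 0 against 0.75 and 1.47 FPKM, and H3C15, at 0 and 0 against 1.3 and 0.32, were detected in DMSO libraries alone and were not tested. H3C1 and H3C2 reached at most 0.70 FPKM, and the other 8 H3 members were listed at 0.

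H4 genes encode 1 protein from many gene copies. H4C14 and H4C15, on chromosome 1, shared all windows with each other and had identical values of 2.24 and 4.22 FPKM with FABP4 and 3.45 and 3.08 with DMSO. They are thus 1 measurement, and the DMSO libraries lay between the FABP4 libraries (limma adjusted p = 0.983 for a log2 fold change of -0.051). H4C8 had 2.93 and 1.29 against 4.59 and 1.69 (limma adjusted p = 0.764 for a log2 fold change of -0.37) and H4C3 1.2 and 0 against 1.18 and 0 (limma adjusted p = 0.998 for a log2 fold change of 0.0066). In both, the libraries of each group lay farther apart than the group means. H4C2 and H4C9 reached 0.68 and 0.70 FPKM, and H4C1, H4C4, H4C5 and H4C13 were listed at 0.

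The lower values of H2AC14 and H4C12 went with higher values of a gene that shares their sequence. H4C12 had 0 and 3.76 FPKM with FABP4 and 5.35 and 1.97 with DMSO (log2 fold change -0.99, 95% interval -1.95 to -0.041, limma adjusted p = 0.483). H4C11, in which 80% of windows also occur in H4C12, had 6.06 FPKM in FABP4 replicate 1, the library where H4C12 was at 0, and 0 in the rest. Their sum was 6.06 and 3.76 against 5.35 and 1.97 FPKM, with overlapping groups and a log2 fold change of 0.42 (95% interval -0.10 to 0.94, limma adjusted p = 0.667). H2AC14 shares 83.3% of its windows with H2AC13. In FABP4 replicate 2 H2AC14 was at 0 and H2AC13 at 3.24 FPKM, against 0.35 to 0.74 in the other libraries. The sum of both was 1.95 and 3.24 against 2.71 and 1.88 FPKM, with a log2 fold change of 0.11 (95% interval -0.25 to 0.48, limma adjusted p = 0.941). Summing turned the direction in both pairs. With the pairs H4C11 and H4C12, H4C14 and H4C15, H2AC13 and H2AC14, and H2AC18 and H2AC19 each summed, 19 rows were tested and none passed, with 6 higher and 2 lower at an unadjusted limma p under 0.05 and a median log2 fold change of 0.11. Without summing, 9.68% of all tested genes had such a p, 5.68% higher and 4.0% lower.

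**Figure D4:**
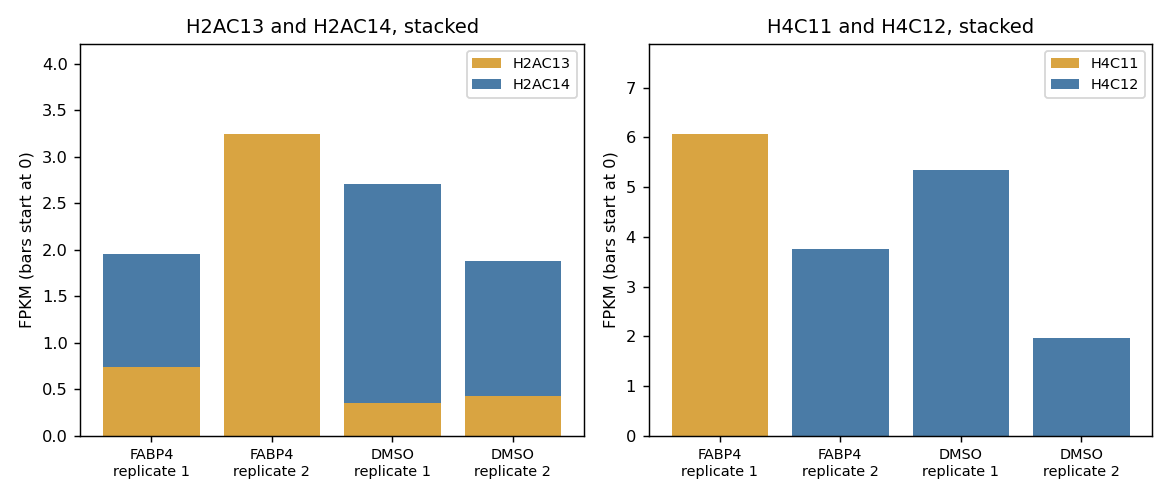
FPKM of H2AC13 and H2AC14 (left) and of H4C11 and H4C12 (right), stacked from 0, in each library (x axis). In FABP4 replicate 2 the H2A pair is held by H2AC13 alone at 3.24 FPKM, and in FABP4 replicate 1 the H4 pair by H4C11 alone at 6.06 FPKM.

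The low values may rest on few fragments. The table gives no fragment numbers, so they were estimated. Ratios of low values between libraries gave depths of 0.959 and 0.885 for FABP4 replicates 1 and 2 and 1.03 for DMSO replicate 2, relative to DMSO replicate 1. With these, the smallest whole numbers of at most 8 fragments per library were sought for the 24 members with a mean under 5 FPKM and at least 2 values above 0, within 0.045 of a whole number at 1 fragment and 0.15 at 8. Such numbers were found for 21 members and not for 3. They are not unique, since any multiple of a solution is also one, and how often chance gives a solution was not computed. For H3C10 they were 5 and 4 with FABP4 and 3 and 2 with DMSO. For H1-4 they were 3 and 1 against 2 and 1, for H4C8 5 and 2 against 8 and 3, and for H2AC11 5 and 4 against 4 and 4. H1-5, H2AC4 and H3C12 are at 0 FPKM in all libraries, yet the authors' deposited table gives each a log2 fold change of -0.86 and a p of 0.850. The same pair of values stands there for 391 genes, H2AC12 and H2AC21 among them, and whether a listed 0 stands for no fragment was not tested.

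The FPKM ratio and the authors' fold change lay close together in 4 of the 8 leading members. In H2BC12, H2BC21, H2AC18 and H1-2 the log2 ratio of mean FPKM and the log2 fold change in the authors' deposited table differed by at most 0.046. For H2BC5 the ratio lay 0.0998 above and for H2AC20 0.095 below the authors' deposited fold change, gaps as large as in 8.7% and 10.2% of 9113 genes with a mean of at least 5 FPKM. For H2AC6 the ratio gave 0.49 and the authors' deposited table gives 0.20 (p = 0.516), a gap of 0.29. For H2BC4 the ratio gave -0.45 and the authors' deposited table gives -0.20 (p = 0.757), a gap of -0.25. Gaps as large as that of H2AC6 were found in 0.23% of these genes, and as large as that of H2BC4 in 0.37%. The cause of these gaps was not tested. The higher H2AC6 level in FPKM was thus not matched by a difference of that size in the authors' fold change.

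**Figure D5:**
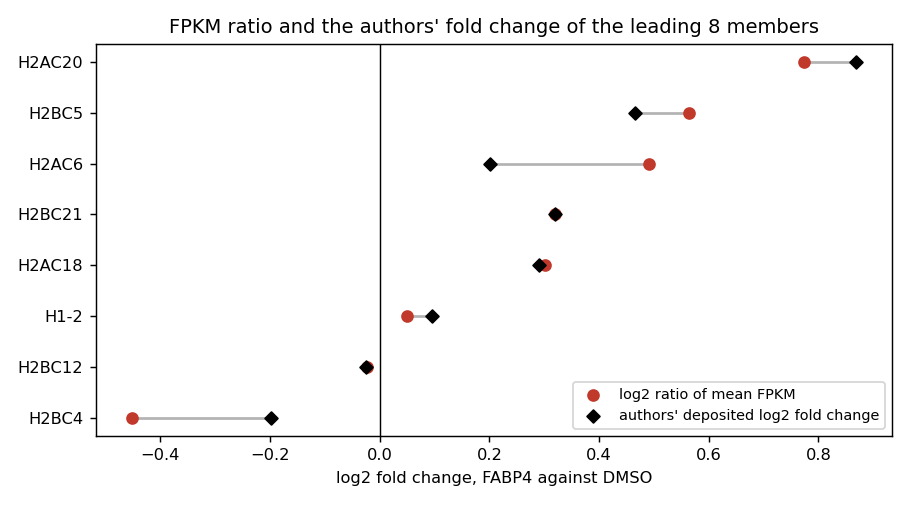
Log2 ratio of mean FPKM (red circles) and the authors' deposited log2 fold change (black diamonds), FABP4 against DMSO (x axis), for the 8 leading members (y axis). Both lie close together in H2BC21 and H2BC12, and 0.29 apart in H2AC6.

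Genes that act on histone mRNA gave no calls in limma either, where 0.592% of all tested genes passed and 9.68% had an unadjusted p under 0.05. Of 27 genes for transcription of histone genes and for processing or decay of their mRNA, all were tested and none passed (1 at an unadjusted p under 0.05), with a median log2 fold change of 0.028. SLBP, the stem-loop binding protein gene, had 65.47 and 58.03 FPKM with FABP4 and 65.18 and 70.57 with DMSO (log2 fold change -0.14, 95% interval -0.40 to 0.13, limma adjusted p = 0.860). NPAT, the S-phase activator gene, had 4.89 and 5.16 against 4.42 and 5.01 (limma adjusted p = 0.946 for a log2 fold change of 0.078). In both genes the groups overlapped. TUT7, a uridylyltransferase gene of histone mRNA decay, had 7.90 and 7.53 against 6.15 and 6.16 (limma adjusted p = 0.413), and ZNF473, of the U7 processing machinery, 3.41 and 2.96 against 4 and 3.73 (limma adjusted p = 0.679).

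Of 12 tested variant histones none passed in limma, and none had an unadjusted p under 0.05. H3-3A and H3-3B, which encode the replacement histone H3.3, had 261 ± 23.9 against 262 ± 28.8 FPKM and 165 ± 14 against 157 ± 15.8 FPKM (limma adjusted p = 0.998 and 0.956). H2AX, a DNA damage variant that is also made in S phase, had 160 ± 3.03 against 183 ± 30.4 FPKM and H2AZ1, a promoter variant, 500.2 ± 104 against 510.1 ± 44.9 FPKM (limma adjusted p = 0.796 and 0.986). H1-10, a linker histone variant, had 120.2 ± 12.2 against 116 ± 5.32 FPKM (limma adjusted p = 0.979). MACROH2A2 and H2AJ, with the smallest p of the list, stood at 9.20 ± 0.0566 against 10.6 ± 0.474 and 15.8 ± 2.47 against 13.5 ± 1.80 FPKM (limma adjusted p = 0.689 and 0.723).

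Of 20 histone chaperone genes none passed in limma, and none had an unadjusted p under 0.05. NASP, a chaperone gene for H3 and H4, had 113.75 and 96.19 against 85.45 and 88.22 FPKM (limma adjusted p = 0.532 for a log2 fold change of 0.27), and CABIN1, of the HIRA complex, 29.76 and 35.11 against 29.74 and 25.21 (limma adjusted p = 0.620). Of 22 S-phase DNA replication genes none passed (1 at an unadjusted p under 0.05), while 20 had a log2 fold change under 0, against 5748 of all 12490 tested genes. In 9 of the 22 both FABP4 libraries lay below both DMSO libraries and in 0 above, against 2017 below and 2591 above among the 12490. The median of the 22 was -0.088, against 0.014 over all tested genes. RFC3, a clamp loader gene, had 16.44 and 16.05 against 19.25 and 22.87 FPKM (limma adjusted p = 0.267 for a log2 fold change of -0.35), and PRIM1, a primase gene, 14.86 and 13.58 against 14.76 and 21.14 (limma adjusted p = 0.532). PCNA, the sliding clamp gene, had 185.71 and 155.65 against 160.5 and 192.33 FPKM, and MCM2, a helicase subunit gene, 35.37 and 33.44 against 37.6 and 34.92 (limma adjusted p = 0.980 and 0.945). The groups overlapped in PCNA and MCM2.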

How the data were processed

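The labels name total RNA for the 4 libraries of C28/I2 cells, which does not say how RNA was selected before sequencing. FPKM values deposited by the authors were used as given, per the file headers. A p-value, a q-value and a log2 fold change for each gene, made by the authors with DESeq2, stand in the same table, per the file headers. Set against the FPKM, their sign is positive where FABP4 is higher. Bowtie2 2.2.5, RSEM 1.2.12, DESeq2 1.4.5 and GRCh38.p13 are named without roles, per the submitters' processing notes. The sources used here do not give the annotation, the filters, how RNA was selected or whether libraries kept the strand. FPKM hold no counts, so a count test was not used.

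The condition was the single term of a limma 3.58.1 model (R 4.3.3) of log2(FPKM + 1), two-sided, with the prior variance following the mean, which was first tested on simulated data. Genes needed 1 FPKM or more in 2 libraries. Tested members are described, with every library's value where the mean is at least 5 FPKM, and the others are given by counts or values. Of each related list the genes with the smallest p are named, with SLBP, NPAT, 5 variant histones, PCNA and MCM2, and 1 further gene of the rule is not reported here. Members, lists and the naming rule were chosen with earlier results of these data known, and the summed pairs after their values were seen. Sequences were matched by gene ID: 63 members in GENCODE 29 and 58 in the RefSeq promoter table, with 1 window per gene. Shared sequence is the percentage of 50-base windows of a gene's longest GENCODE 29 transcript that another gene's transcripts hold.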

Additional observations from a re-analysis of the deposited data

How the results depend on the processing

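With 2 libraries a group, every call rests on few values. In limma 74 of 12490 genes passed (37 higher, 37 lower) and 0 of 20 members. With a mean of at least 5 FPKM required, 156 of 9114 genes and 3 of 8 members passed. Robust variance moderation gave 164 of 12490 genes and 3 of 20 members. Of the same genes and members, 180 (65 higher, 115 lower) and 4 passed after rescaling to equal totals. After quantile normalization 10 (3 higher, 7 lower) and 0 of them passed. Without the filter on low values 0 of 17878 genes and 0 of 37 members passed. H2AC20 and H2BC5 were among the members that passed in the first 3 of these. Leaving out 1 library leaves a group with 1 sample, assumed to vary like the other group, and gave 49 to 150 genes, 0 to 4 members and a median log2 fold change of the tested members of -0.0355 to 0.166. H2AC20 and 3 other members passed without FABP4 replicate 1 (4) and without FABP4 replicate 2 (4), H2AC20 and H2BC5 without DMSO replicate 1 (2), and none without DMSO replicate 2. The median was 0.0096 over the 20 tested members and 0.29 over the 8 with a mean of at least 5 FPKM, a setting that leaves out the lower members. It was 0.11 over the 19 rows with near-identical pairs summed, a setting chosen after seeing the data, as was the crossed pairing below. With the replicate number as a block 47 of 12490 genes and 1 of 20 members (H2AC14) passed. Deviations of same-numbered libraries correlated at -0.12 over 12490 genes, which are not independent, and no label says that the numbers pair libraries. With the pairing crossed, 418 of 12490 genes and 7 of 20 members passed. The ratio of summed FPKM stayed at 1.002 to 1.18 for all members and 1.19 to 1.37 for H2A when scaling was changed or a library left out. Of 551 log2 fold changes of 38 named genes under the alternatives, 35 changed sign, none of them called before or after. The cause of these changes was not tested. What depth limits could not be measured, since the table gives no fragment numbers.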
